A study of Mus musculus with 6 samples.

Results

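The genes described here are 9 receptors that tune insulin release from pancreatic beta cells, and Cltrn, a beta-cell membrane glycoprotein gene. They were taken by gene symbol from the deposited count table: Glp1r, Gipr, Gcgr, Ffar1, Gpr119, Adra2a, Sstr3, Chrm3, Prlr and Cltrn, which makes 10 of 21652 genes. Of these, 8 had enough counts to be tested among 12782 genes, and Gcgr and Gpr119 did not. The data are ribosome profiling libraries of MIN6, a mouse line derived from an insulin-secreting tumour. In ribosome profiling, the stretches of mRNA covered by ribosomes are sequenced after nuclease digestion, and the reads on a gene follow both its mRNA amount and its ribosome load. There were 3 libraries of cells expressing sgLTN1, a guide RNA named for Ltn1, and 3 of cells expressing sgNT, taken here to be the non-targeting control. The labels give no treatment for either group. Neither the use of 1 clone or a pool nor separate cultures for each library is stated, and the p-values below rest on differences between libraries that may be technical.

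Gene totals ran from 4993245 to 11198735 counts in the sgLTN1 libraries and from 4373467 to 7802364 counts in the sgNT libraries. Values are CPM, counts scaled to a common library size. Ltn1, which encodes the ubiquitin ligase Listerin, read 65.3, 71.4 and 64.9 CPM in sgLTN1 cells, against 143, 145 and 141 CPM in sgNT cells. All 10 beta-cell markers examined had counts, although Slc2a2 and Ucn3 held only 35 and 12 over the 6 libraries. Beta-cell marker sums of 93028 to 114554 CPM in sgLTN1 and 94825 to 105271 CPM in sgNT overlapped. The 4 alpha-cell markers summed to 666 to 801 CPM in sgLTN1 and 747 to 859 CPM in sgNT. The 2 delta-cell markers summed to 41.4 to 48.7 CPM in sgLTN1 and 30.5 to 33.0 CPM in sgNT. That sum was nearly all Sst, at a mean of 43.3 CPM in sgLTN1 and 30.4 CPM in sgNT, while Hhex held 46 counts over the 6 libraries. The 4 duct-cell markers summed to 2067 to 2217 CPM in sgLTN1 and 1884 to 2028 CPM in sgNT, nearly all of it Spp1, while Krt19 and Cftr held 9 and 13 counts over the 6 libraries. Ppy, the PP-cell marker, read 4.97 to 6.95 CPM in sgLTN1 and 2.06 to 3.96 CPM in sgNT. The part of these 3 marker sets in the results was not tested. Fewer cells of a type and fewer footprints per cell cannot be told apart in such bulk lysates.

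Glucose triggers insulin release, and the receptors set its size. GLP-1 and GIP, gut hormones called incretins, act through Gs-coupled receptors that raise cyclic AMP (cAMP), and long-chain fatty acids and acetylcholine act through Gq-coupled receptors that release calcium from stores. Adrenaline and somatostatin act through Gi-coupled receptors that lower cAMP and hold release back. Prolactin acts through a cytokine receptor that signals by JAK2 and STAT5 and is known for beta-cell growth in pregnancy. Collectrin, the product of Cltrn, is a membrane glycoprotein that is cleaved and shed from beta cells by the protease BACE2.

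The 7 receptor genes tested and Cltrn lay mostly a little higher in sgLTN1 cells, with 7 of 8 log2 fold changes above 0 and a median of 0.20, beside 47.3% above 0 and a median of -0.02 over all tested genes. Abundant genes mostly lay above 0, however. Among genes of like abundance to Cltrn, Glp1r, Prlr, Adra2a or Ffar1, 74.3% to 86.7% did so, as described below. None of the 8 passed an adjusted p of 0.05 (edgeR, quasi-likelihood test, adjusted by Benjamini-Hochberg over all tested genes), where 0.18% of all genes were called. At an unadjusted p under 0.05 there were 4 of the 8, all higher in sgLTN1 (Cltrn, Adra2a, Glp1r and Sstr3), beside 8% of all genes higher at that level. In the same 4, every sgLTN1 library exceeded every sgNT library, which was so for 10.1% of all genes. The authors' deposited table, made with DESeq2, gave an adjusted p for 5 of the 10 genes and called 3 of them higher, Cltrn, Adra2a and Glp1r. Beside this, 6.79% of the 2697 genes with an adjusted p there were called higher, and 8.42% in either direction. The calls of these 3 genes thus differed between the tests.

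**Figure D1:**
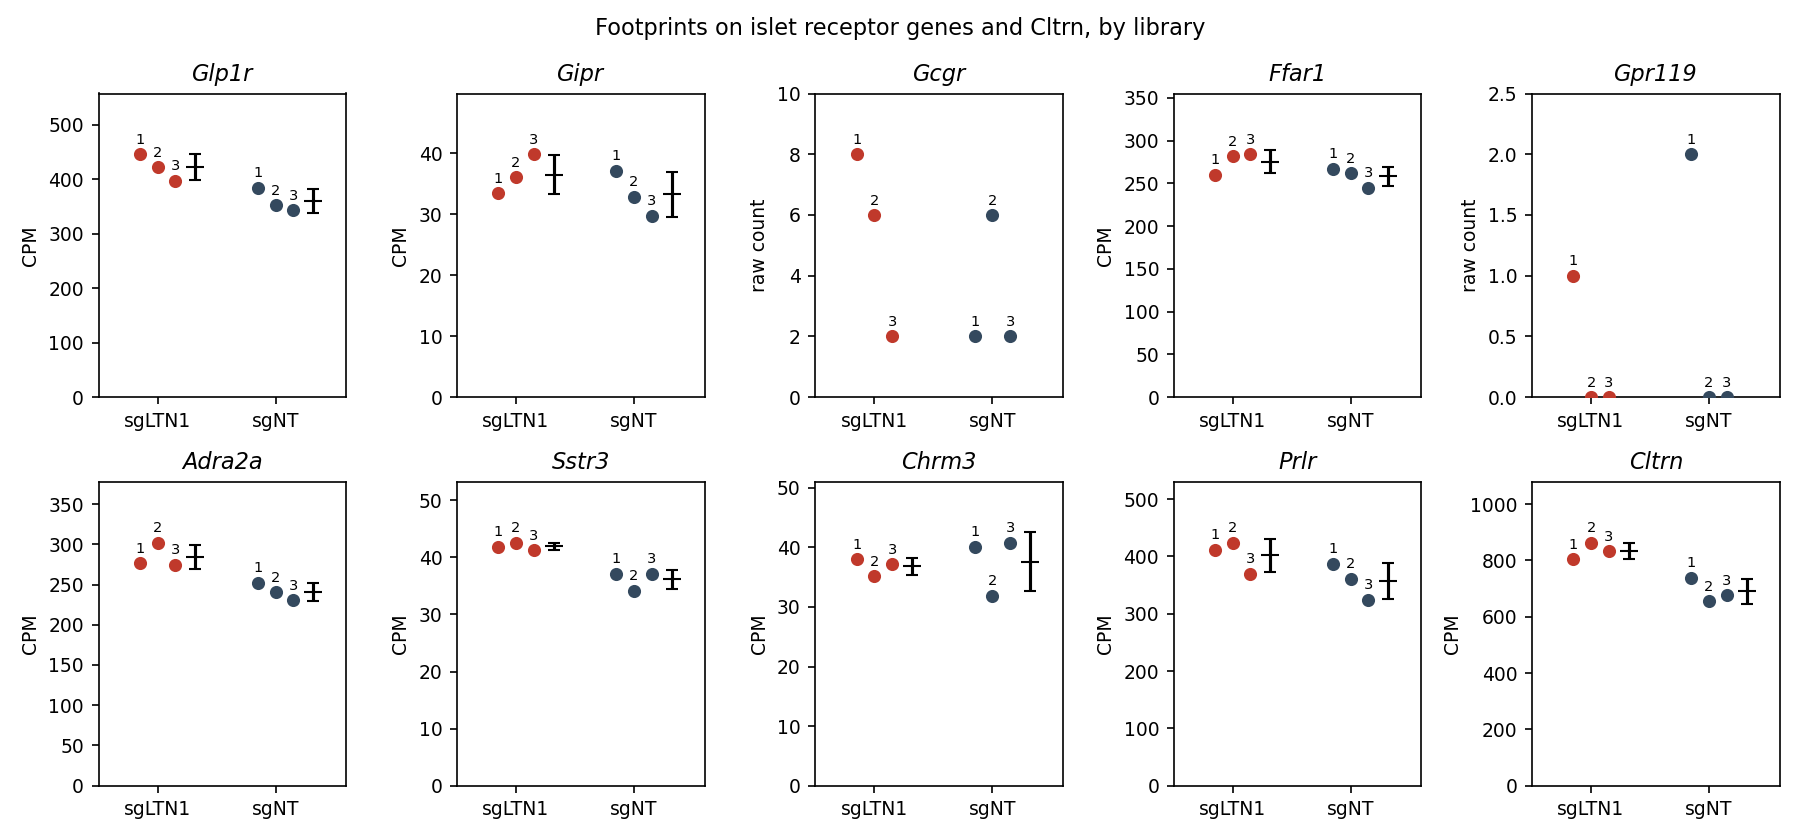
Footprints on the 10 genes in each library, as CPM or, for Gcgr and Gpr119, as raw counts; numbers beside points are library numbers, and bars give the mean and SD of the 3 libraries. Cltrn, Glp1r, Adra2a and Sstr3 show no overlap between sgLTN1 and sgNT, while the other genes overlap.

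Since the deposited table calls Cltrn, Glp1r and Adra2a, the 250 bases before the annotated start of each are shown, from RefSeq on build GRCm38.p6, which differs from the build of the counts (GRCm39). Capitals mark a match to the TATA box letters TATAAA, searched on both strands and chosen after the sequences were seen. The windows are chrX:164089937-164090186 (plus strand) for Cltrn, chr17:30901617-30901866 (plus strand) for Glp1r and chr19:54045009-54045258 (plus strand) for Adra2a.
Cltrn: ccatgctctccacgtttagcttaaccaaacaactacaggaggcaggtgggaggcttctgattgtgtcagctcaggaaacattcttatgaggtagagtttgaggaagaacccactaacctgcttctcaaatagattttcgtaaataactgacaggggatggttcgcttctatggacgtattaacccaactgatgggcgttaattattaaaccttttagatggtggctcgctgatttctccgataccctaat
Glp1r: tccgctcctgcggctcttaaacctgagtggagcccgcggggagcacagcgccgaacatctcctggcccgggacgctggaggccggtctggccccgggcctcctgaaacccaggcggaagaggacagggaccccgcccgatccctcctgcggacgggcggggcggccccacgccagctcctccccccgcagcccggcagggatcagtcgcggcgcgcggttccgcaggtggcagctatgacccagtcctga
Adra2a: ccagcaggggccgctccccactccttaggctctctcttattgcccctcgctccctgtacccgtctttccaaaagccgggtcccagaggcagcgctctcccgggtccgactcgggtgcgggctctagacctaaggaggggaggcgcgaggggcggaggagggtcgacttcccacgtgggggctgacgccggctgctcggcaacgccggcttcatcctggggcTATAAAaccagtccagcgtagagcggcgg
The match in Adra2a begins 29 bases before the start, the usual place of a TATA box. Of 32851 windows of the same 250 bases over all genes, 12.4% hold these letters. No other of the 13 windows found for 9 of the 10 genes holds them, a second Cltrn start included. The cAMP response element TGACGTCA, also searched on both strands, is in 1.55% of all windows and in none of those 13. The match in Adra2a is thus the only match to either motif in these windows. A match describes the letters only, and footprints do not measure promoter activity.

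Glp1r encodes the GLP-1 receptor, the target of the GLP-1 drugs used in diabetes. It read 446, 423 and 398 CPM in sgLTN1 libraries 1 to 3, against 384, 352 and 343 CPM in sgNT libraries 1 to 3. Every sgLTN1 library lay above every sgNT library, with means of 422 ± 24.2 and 360 ± 21.6 CPM (SD, n = 3 each), 17.3% apart. This is a log2 fold change of 0.23 (SE 0.07, 95% interval 0.08 to 0.38) with adjusted p = 0.159 in edgeR. The authors' deposited table gave 0.25 (SE 0.09) with adjusted p = 0.0441.

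Gipr encodes the receptor for GIP, the other incretin. It was scarcer in counts, with 194 to 371 in the sgLTN1 libraries and 138 to 266 in the sgNT libraries. The CPM values were 33.5, 36.1 and 39.9 in sgLTN1 and 37.1, 32.9 and 29.8 in sgNT, so the groups overlapped. The estimate of 0.12 (SE 0.10) had an interval from -0.11 to 0.35 on the log2 scale, which holds both no change and a rise as large as that estimated for Glp1r (edgeR adjusted p = 0.626). Within libraries, Glp1r held 13.3, 11.7 and 9.98 counts per Gipr count in sgLTN1 and 10.4, 10.7 and 11.5 in sgNT (two-sided exact permutation test, p = 0.6, adjusted p = 0.9 over 5 ratios examined). The ratios of the groups overlapped, and with so few libraries the exact permutation test cannot go below p = 0.1.

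Gcgr encodes the glucagon receptor, through which neighbouring alpha cells can raise cAMP in beta cells. It held 8, 6 and 2 counts in sgLTN1 libraries and 2, 6 and 2 counts in sgNT libraries. The ratio of sgLTN1 to sgNT, corrected for depth, was 1.09 with a 95% exact interval of 0.464 to 2.68, which covers counting error only. No difference was detectable at this depth.

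Ffar1 encodes the long-chain fatty acid receptor GPR40, which couples to Gq. Its values overlapped, at 260.0, 282 and 284 CPM in sgLTN1 and 267, 262 and 245 CPM in sgNT. The log2 fold change of 0.09 (SE 0.06, 95% interval -0.05 to 0.23) did not pass (edgeR adjusted p = 0.541), nor did it in the authors' deposited table, with 0.11 and adjusted p = 0.417. Its upper bound corresponds to 1.18 times the sgNT level. Gpr119, a Gs-coupled receptor for lipid amides, had 1 count in sgLTN1 library 1 and 2 counts in sgNT library 1, and 0 in the other 4 libraries, so no fold is given. The free fatty acid receptor genes related to Ffar1, chosen for the family and not by value, had no change past the test. The short-chain fatty acid receptor genes Ffar2 and Ffar3 held 299 and 394 counts over the 6 libraries, and Ffar4 held 65.

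Adra2a encodes the alpha-2A adrenergic receptor, the Gi-coupled receptor through which adrenaline suppresses insulin release. It read 276, 302 and 275 CPM in sgLTN1, against 252, 240.2 and 230.4 CPM in sgNT. The lowest sgLTN1 library stood above the highest sgNT library, and the means were 284 ± 15.4 and 241 ± 11.0 CPM (SD, n = 3 each), 17.9% apart. On the log2 scale the fold change was 0.24 (SE 0.07, 95% interval 0.09 to 0.38, edgeR adjusted p = 0.145). The authors' deposited table gave 0.26 (SE 0.09) with adjusted p = 0.0396. Thus Glp1r, which raises cAMP, and Adra2a, which lowers it, had estimates of nearly the same size. There were 1.62, 1.40 and 1.45 Glp1r counts per Adra2a count in sgLTN1 libraries and 1.52, 1.47 and 1.49 in sgNT libraries (two-sided exact permutation p = 0.9, adjusted p = 0.9 over 5 ratios).

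The related alpha-2C receptor gene Adra2c lay on the other side. It read 70.7, 66.1 and 66.0 CPM in sgLTN1, against 97.2, 83.5 and 114 CPM in sgNT. No values overlapped, and the log2 fold change was -0.53 (SE 0.10, edgeR adjusted p = 0.0864), while the authors' deposited table gave -0.51 with adjusted p = 0.00303. Adra2a held 3.91, 4.57 and 4.16 counts per Adra2c count in sgLTN1 and 2.60, 2.88 and 2.02 in sgNT, a ratio that does not depend on how libraries are scaled. The exact permutation test of this ratio gave p = 0.1, the smallest it can give, and adjusted p = 0.5 over the 5 ratios. With Adra2a higher and Adra2c lower in every sgLTN1 library, that outcome was fixed in advance. The test therefore adds nothing to the values of each gene. Adra2b, the gene of the remaining alpha-2 subtype, averaged 5.29 ± 3.09 CPM in sgLTN1 and 6.71 ± 1.12 CPM in sgNT (SD, n = 3 each) and overlapped.

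Sstr3 encodes a Gi-coupled somatostatin receptor found on primary cilia, including those of beta cells. It read 41.9, 42.6 and 41.3 CPM in sgLTN1, against 37.1, 34.1 and 37.1 CPM in sgNT. The sgLTN1 libraries were tightly grouped and lay above all sgNT libraries, at 41.9 ± 0.633 and 36.1 ± 1.72 CPM (SD, n = 3 each). Its log2 fold change was 0.22 (SE 0.08, 95% interval 0.05 to 0.40, edgeR adjusted p = 0.219). The authors' deposited table gave 0.24 with a raw p = 0.0721 and left the adjusted p blank. Counts of 162 to 464 per library give a counting error of 4.64% to 7.86% for each library, larger than the observed spread of 1.51% in sgLTN1, so the closeness of those 3 values is not a measure of precision. Among the other somatostatin receptor genes, Sstr1, Sstr2, Sstr4 and Sstr5 held 42, 84, 137 and 103 counts in all, and the groups overlapped for each. Adra2a and Sstr3 kept a like ratio, with 6.59, 7.09 and 6.65 Adra2a counts per Sstr3 count in sgLTN1 and 6.80, 7.04 and 6.21 in sgNT (exact permutation p = 0.8, adjusted p = 0.9 over 5 ratios).

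Chrm3 encodes the M3 muscarinic receptor, the Gq-coupled receptor by which vagal acetylcholine raises insulin release. It was the 1 tested gene of the 8 with an estimate below 0. Its values were 38.0, 35.2 and 37.2 CPM in sgLTN1, against 40.1, 31.9 and 40.8 CPM in sgNT, with the sgLTN1 libraries lying inside the range of the sgNT libraries. Its log2 fold change was -0.015 (SE 0.11, 95% interval -0.25 to 0.22, edgeR adjusted p = 0.971), and the authors' deposited table gave 0.0030. Its sign changed when sgLTN1 library 2 (0.028), sgNT library 1 (0.056) or sgNT library 3 (0.056) was left out. The M4 gene Chrm4, the Gi-coupled relative with most counts, averaged 21.5 ± 1.02 CPM in sgLTN1 and 17.0 ± 1.30 CPM in sgNT (log2 fold change 0.34, SE 0.10, edgeR adjusted p = 0.165). It was singled out after its values were seen. Chrm3 held 1.70, 1.61 and 1.83 counts per Chrm4 count in sgLTN1 and 2.24, 1.80 and 2.63 in sgNT (exact permutation p = 0.2, adjusted p = 0.5 over 5 ratios).

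Prlr encodes the prolactin receptor. It read 412, 424 and 370 CPM in sgLTN1, against 387, 361 and 325 CPM in sgNT, and sgLTN1 library 3 lay below sgNT library 1. Its estimate was 0.17 on the log2 scale (SE 0.08, 95% interval -0.0028 to 0.34, edgeR adjusted p = 0.332), and the authors' deposited table gave 0.19 with adjusted p = 0.186. The variance of Prlr within groups was 12.2 times that of counting noise (chi-square per degree of freedom), so counting error was the smaller part of its error. This measure grows with counts at a given spread, so the median of 1.29 over all tested genes is not a like baseline. For the abundant genes Glp1r and Cltrn it was 7.89 and 12.6.

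Cltrn had the most counts of the 10 genes, 32542 over the 6 libraries, and the smallest p of the 8 tested. It read 804, 863 and 832 CPM in sgLTN1, against 738, 655 and 676 CPM in sgNT. All sgLTN1 values lay above all sgNT values, with means of 833 ± 29.5 and 690 ± 43.4 CPM (SD, n = 3 each), 20.7% apart. It differed by 0.27 on the log2 scale (SE 0.06, 95% interval 0.14 to 0.41) with adjusted p = 0.105 in edgeR, rank 134 by p of 12782 genes. The authors' deposited table gave 0.29 (SE 0.08) with adjusted p = 0.00831. The variance within groups was 12.6 times that of counting noise. The genes whose log2 CPM followed Cltrn most closely over the 6 libraries were Aph1c, Cemip2 and Dock9, with Pearson r of 0.992, 0.990 and 0.989 among 7513 genes of at least 10 CPM. These are descriptions over 6 points that share the group difference, and 230 genes had r over 0.9.

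**Figure D2:**
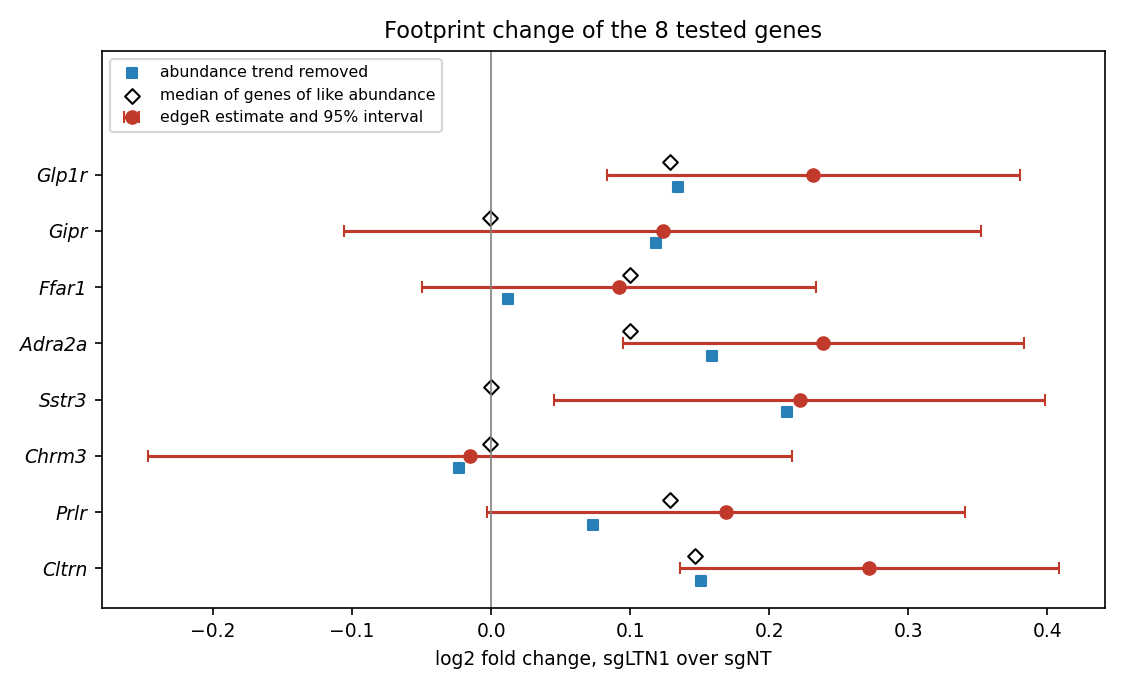
Log2 fold change of sgLTN1 over sgNT for the 8 tested genes (circles, with 95% intervals from edgeR), the median of genes within 0.5 log2 CPM of each (diamonds) and the estimate after the abundance trend was removed (squares). The interval lies above 0 for Glp1r, Adra2a, Sstr3 and Cltrn, and the diamonds of the abundant genes lie above 0 too.

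Fold changes in this comparison moved with abundance, and genes as abundant as Cltrn, Glp1r, Prlr, Adra2a or Ffar1 lay mostly above 0 as well. Among the 135 tested genes within 0.5 log2 CPM of Cltrn, 86.7% had a log2 fold change above 0 and the median was 0.15, against 0.27 for Cltrn itself. For Glp1r the like-abundance median was 0.13, for Adra2a 0.10 and for Sstr3, a scarcer gene, 0.00020. Around Gipr and Chrm3, which are about as scarce, 49.9% of genes lay above 0. With the trend removed in each library, the log2 fold changes were 0.15 for Cltrn (SE 0.05, edgeR adjusted p = 0.218), 0.13 for Glp1r (SE 0.05, adjusted p = 0.277), 0.16 for Adra2a (SE 0.05, adjusted p = 0.210) and 0.21 for Sstr3 (SE 0.08, adjusted p = 0.247). The estimates for Cltrn, Glp1r and Adra2a thus shrank by more than 1.5 times, while that for Sstr3 moved little. Ffar1 and Prlr came to 0.01 and 0.07. All 8 genes kept their sign, with a median of 0.13.

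The size of the estimates moved with single libraries. Within sgNT, library 1 was the highest for 7 of the 8 tested genes, all but Chrm3, and library 3 was the lowest for 5. Leaving out sgNT library 1 gave the highest estimate seen on leaving out any library for each of the 8 genes, with 0.34 for Cltrn, 0.30 for Glp1r, 0.29 for Adra2a and 0.25 for Prlr. The lowest on leaving out a library were 0.25 for Cltrn (without sgNT library 2), 0.19 for Glp1r (without sgLTN1 library 1), 0.20 for Adra2a (without sgLTN1 library 2) and 0.11 for Prlr (without sgNT library 3). Gipr came to 0.22 without sgNT library 1 and 0.06 without sgNT library 3, and Ffar1 to 0.14 and 0.06 without the same libraries. Scaling by total counts alone gave 0.048 for Gipr, 0.017 for Ffar1, 0.095 for Prlr, 0.15 for Sstr3 and -0.09 for Chrm3, each more than 1.5 times away from the reported estimate. None of the 8 passed the edgeR threshold in any of these fits. Taken as a share of each library, the 10 genes held 0.222% to 0.229% of counts in sgLTN1 and 0.199% to 0.214% in sgNT. Of the counts on the 10 genes, Cltrn alone made up 33.2% to 36.5% in each library. Glp1r made up 17.5% to 19.3% and Prlr 16.2% to 18.3%. The share thus mostly follows these abundant genes and is not a separate result.

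**Figure D3:**
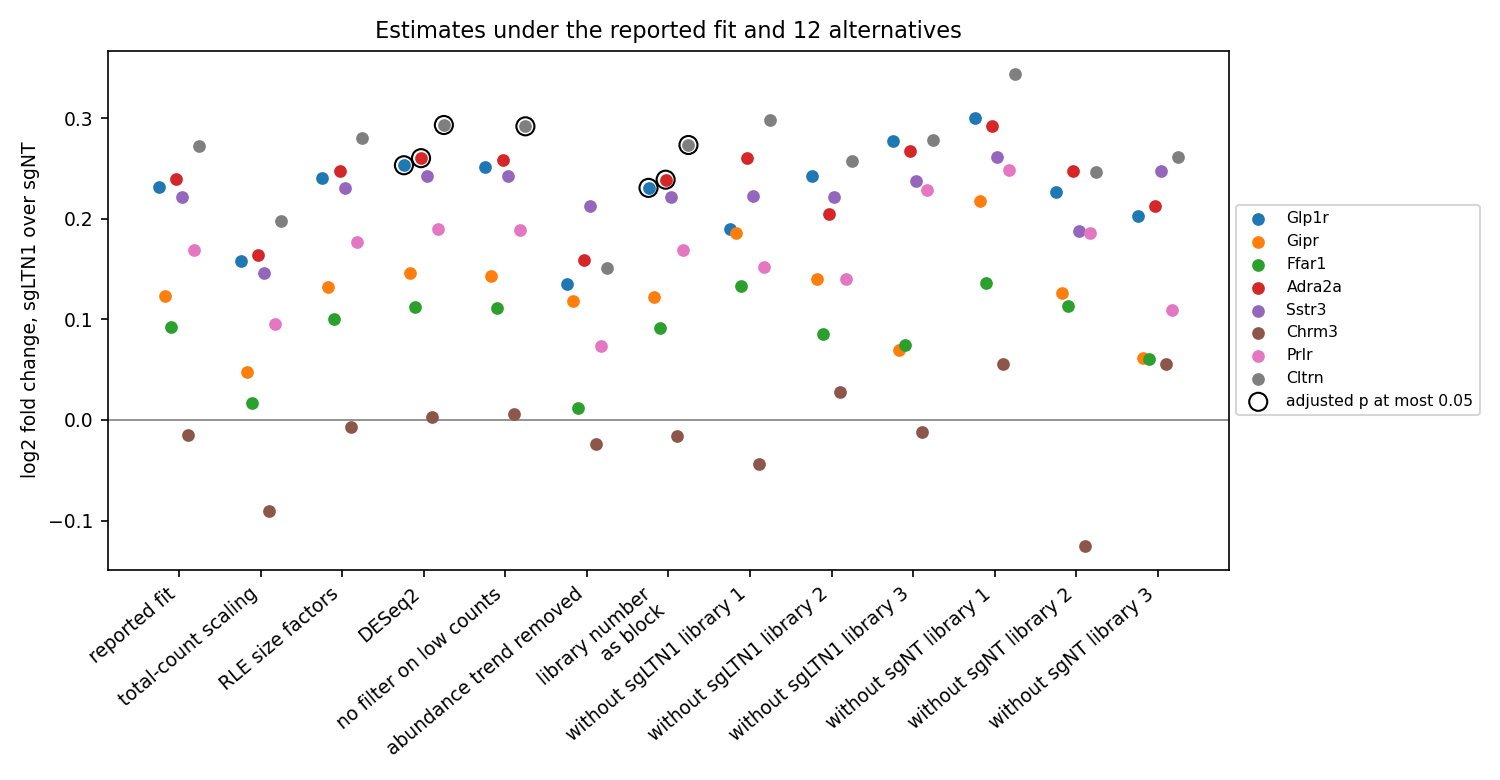
Log2 fold change of sgLTN1 over sgNT (vertical axis) for the 8 tested genes under the reported fit and 12 alternative settings (horizontal axis), with rings where the adjusted p was at most 0.05. Rings are seen for Cltrn, Glp1r and Adra2a with DESeq2 and with the library number as a block, and for Cltrn alone without a filter on low counts, while Chrm3 lies on both sides of 0.

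The signalling genes around the receptors were followed in 7 lists of 177 gene names from textbook knowledge, of which 138 genes were tested. In edgeR, 0 passed over all genes and 22 had an unadjusted p under 0.05, a level reached by 15.6% of all tested genes, while the authors' deposited DESeq2 table called 5 of the 33 list genes to which it gave an adjusted p (Dpp4, Stim1, Cckbr and Il6st higher, Adra2c lower), beside 8.42% of all genes with one. In the list of 30 other tested hormone, nutrient and transmitter receptors, 21 lay above 0 with a median of 0.15, and 10 were higher at an unadjusted p under 0.05, beside 8% of all genes higher at that level. At the same level 2 were lower, Adra2c and Adra1d, beside 7.56% of all genes lower. The smallest p-values of the list belonged to Adra2c and to Lgr4, an R-spondin receptor gene at 15.2 ± 1.83 CPM in sgLTN1 and 9.45 ± 1.28 CPM in sgNT (SD, n = 3 each; log2 fold change 0.67, SE 0.15, edgeR adjusted p = 0.0973). The median of that list was 0.14 with the abundance trend removed.

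Medians of the lists downstream of the receptors lay nearer to 0 or below it; the difference between lists was not tested. The 21 tested G protein subunit genes had a median of -0.03 with 7 above 0 and none at an unadjusted p under 0.05, where Gnaq, the Gq alpha subunit, came to 0.18 (SE 0.08) and Gnai2, a Gi alpha subunit, to 0.16 (SE 0.10). The 30 tested cAMP genes had a median of -0.06, with 13 above 0. At an unadjusted p under 0.05, 3 of the 30 were lower, beside 7.56% of all genes lower at that level. Pde4d and Pde8b, which encode cAMP-degrading phosphodiesterases, had the smallest p-values there. Pde4d averaged 35.8 ± 5.76 CPM in sgLTN1 and 46.4 ± 4.24 CPM in sgNT (log2 fold change -0.39, SE 0.12, edgeR adjusted p = 0.167), and Pde8b held 87 counts in all with -0.93 (SE 0.34, adjusted p = 0.222).

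In the Gq and phospholipase C list, 11 of 18 tested genes lay above 0 with a median of 0.02. Stim1, the calcium sensor that opens store-operated channels, averaged 100.5 ± 4.70 CPM in sgLTN1 and 79.1 ± 4.62 CPM in sgNT (SD, n = 3 each; log2 fold change 0.35, SE 0.07, edgeR adjusted p = 0.0908), and the authors' deposited table gave 0.37 with adjusted p = 0.0143. The protein kinase C gene Prkca came to 0.23 (SE 0.09, edgeR adjusted p = 0.234). Among receptor desensitisation and accessory genes, 12 of 17 lay above 0 with a median of 0.05. Dpp4, which encodes the peptidase that inactivates GLP-1 and GIP, came closest of all list genes to the edgeR threshold. It read 71.5, 71.1 and 67.6 CPM in sgLTN1, against 52.5, 51.5 and 52.9 CPM in sgNT, with no overlap. Its log2 fold change was 0.43 (SE 0.07, edgeR adjusted p = 0.0504), and the authors' deposited table gave 0.45 (SE 0.12) with adjusted p = 0.00582. Rgs19, a regulator of Gi signalling with 49 counts in all, came to -0.95 (SE 0.38, edgeR adjusted p = 0.265).

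The cytokine receptor and JAK-STAT list, which holds the partners of Prlr, had a median of -0.08 over 16 tested genes, with 7 above 0. Its smallest p-values were those of the interleukin 6 receptor genes, with Il6st at 70.3 ± 5.59 CPM in sgLTN1 and 54.6 ± 2.38 CPM in sgNT (log2 fold change 0.37, SE 0.08, edgeR adjusted p = 0.102) and Il6ra at 12.4 ± 1.84 CPM in sgLTN1 and 9.22 ± 0.710 CPM in sgNT (0.44, SE 0.15, adjusted p = 0.196). Among 6 tested genes of collectrin processing and regulation, 4 lay above 0 with a median of 0.05 and none had an unadjusted p under 0.05. Bace2, whose product cleaves collectrin, averaged 889 ± 38.8 CPM in sgLTN1 and 826 ± 56.2 CPM in sgNT (0.11, SE 0.06, edgeR adjusted p = 0.458), and Bace1 came to 0.18 (SE 0.09, adjusted p = 0.336).

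**Figure D4:**
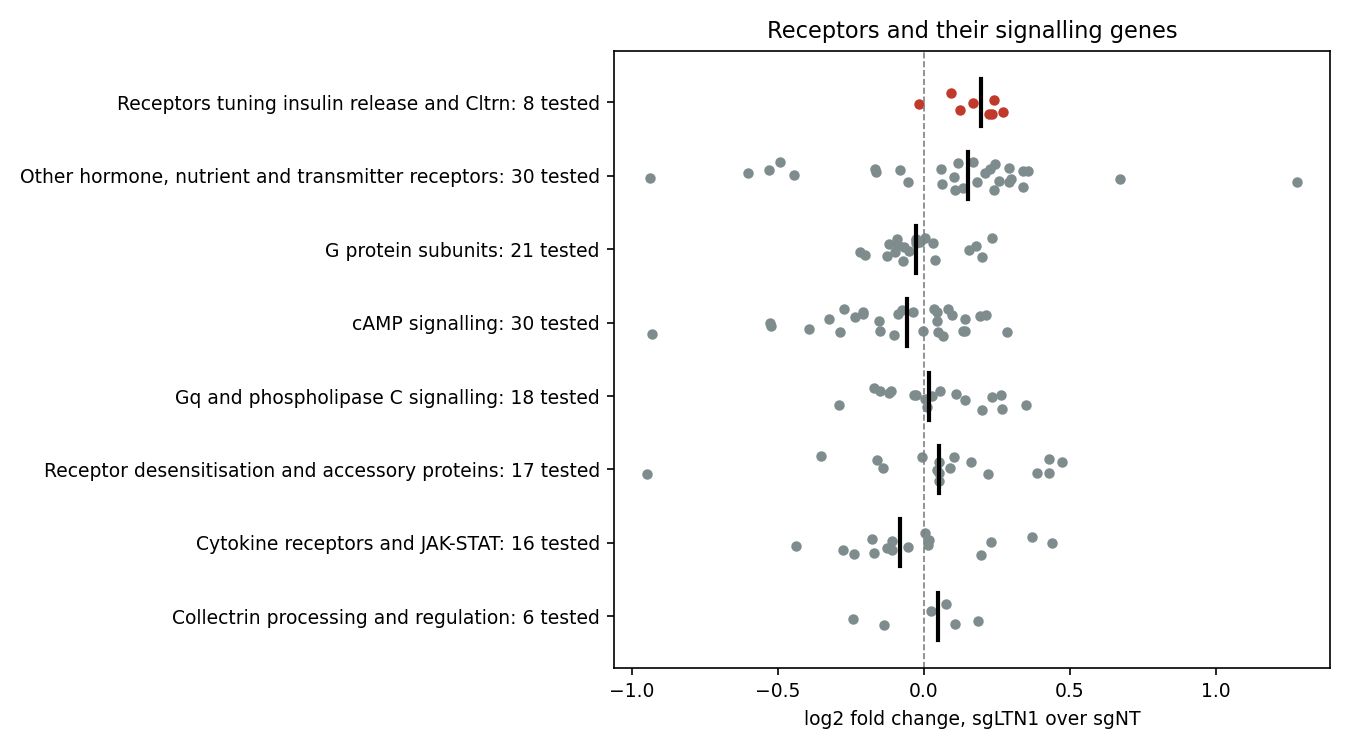
Log2 fold change of sgLTN1 over sgNT (horizontal axis) for tested genes, 1 point per gene, in the receptors with Cltrn (top) and the 7 lists of related genes; black bars are medians. The medians of the receptor rows, 0.20 and 0.15, lie right of 0, and those of the other rows lie between -0.08 and 0.05.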

How the data were processed

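Ribosome profiling was measured in 6 MIN6 libraries, 3 sgLTN1 and 3 sgNT, grouped by the genotype in the labels. The authors deposited whole-number read counts per gene. Build GRCm39, STAR 2.7.11a, Bowtie2 2.5.4, featureCounts 2.12.3, UMI-tools 1.1.2, fastp 0.23.4 and SAMtools 1.9 are named per the submitters' processing notes, without roles. Annotation, strand setting and footprint filters: not given in the sources used here. A second deposited table holds, per the file headers, DESeq2 results (1.38.3 in the notes): log2 fold changes with standard errors, p-values, a Wald score and a mean signal (normalized count) for each gene. Its direction was checked against the counts (r = 0.9955 over 11770 genes with at least 100 counts).

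Genes were filtered with filterByExpr, scaled by TMM and tested with edgeR 4.0.16 (limma 3.58.1, R 4.3.3) by the quasi-likelihood test over all 6 libraries, adjusted over 12782 genes at 0.05; code was tested on simulated data. Log2 fold changes are sgLTN1 over sgNT, and intervals are 95%. Log2 CPM values used a prior count of 2. The abundance trend was removed with a lowess curve per library (span 0.3). Alternatives used DESeq2 1.42.0, other scaling, no filter, a block and leaving out each library. Replicates all differed by more than sampling noise (chi-square per degree of freedom of 2.61 or more). All libraries share a batch label. The files used here give no coding lengths, so levels were not compared between genes. The genes, lists and tests were chosen with earlier results of these data known. The text names all 10 genes, the 2 genes of smallest p in each list (none passed), the 3 closest to Cltrn, and relatives of the receptors. All 23 repeated symbols lie outside the 10 genes.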

Additional observations from a re-analysis of the deposited data

How the results depend on the processing

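Over all genes, edgeR called 23 genes, 11 higher and 12 lower in sgLTN1. The count was 42 with total-count scaling (8 higher, 34 lower), 227 with DESeq2, 222 without a filter on low counts and 609 with the library number as a block. Leaving out 1 library gave 4 to 333 genes (6, 4 and 333 without sgLTN1 libraries 1, 2 and 3, and 9, 9 and 12 without sgNT libraries 1, 2 and 3). Of the receptors and Cltrn, 0 were called in the reported fit, 3 with DESeq2 (Cltrn, Glp1r and Adra2a), 1 without the filter (Cltrn, adjusted p = 0.0417) and 3 with the block (Cltrn, Glp1r and Adra2a, with adjusted p = 0.0219, 0.0189 and 0.0295). The DESeq2 run used the same counts as the authors' deposited table and gave the same log2 fold changes and adjusted p-values for these genes. It is therefore not a separate result. Whether same-numbered libraries were handled as pairs is not stated. Over 12782 genes, same-numbered libraries deviated from their group means with correlations of -0.05, 0.07 and 0.09, and 3 of 6 libraries correlated best with their own number. These correlations weigh all genes alike, scarce genes with much counting noise included, so they cannot decide whether the libraries are paired. Of the signalling genes, 0 were called in the reported fit, 1 with total-count scaling (Adra2c), 5 with DESeq2, 5 without the filter, 10 with the block, and 0 to 7 on leaving out 1 library, the 7 being without sgLTN1 library 3. The log2 fold change of Chrm3 turned to 0.0030 with DESeq2 and 0.0058 without the filter, and ran from -0.125 to 0.056 on leaving out 1 library (0.028 without sgLTN1 library 2). The cause of these differences was not tested. The other 7 tested genes stayed above 0 under all 12 alternatives, with total-count scaling lowering Cltrn to 0.20, Glp1r to 0.16 and Adra2a to 0.16. At these depths Gcgr and Gpr119 carry no usable comparison.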
